A study of Drosophila melanogaster with 4 samples.

Results

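Mitochondrial ribosomal protein genes were followed in Drosophila melanogaster embryos without the 8-miR cluster and in w1118 embryos. The genes are those whose symbol starts with mRpL or mRpS and a digit, found through the annotation IDs of the array probes. The rule itself uses no measured value, but it was set with earlier results of these data known. The gene table holds 73 such genes and 72 of them had a probe, 84 probes in all among 32162 gene probes, while mRpL53 was not analysed here. All 72 genes were above background in both genotypes in all 3 replicates and entered the test, among 9532 genes tested. By symbol, 46 of these 72 genes are mRpL, termed large-subunit here, and 26 are mRpS, termed small-subunit. The symbol alone does not show which subunit holds a protein.

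Mitochondria carry their own ribosome, which translates the few membrane subunits of the respiratory chain encoded by mitochondrial DNA. The ribosomal RNAs come from the mitochondrial genome, but all of the genes described here are nuclear, and their products are made in the cytoplasm and imported. Part of the proteins descend from those of bacterial ribosomes and keep their numbers, and the others were added in mitochondria. Early embryos inherit mitochondria and mitochondrial transcripts from the egg.

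Both genotypes had the w1118 background, a white-eyed laboratory strain that also served as wild type. Titles and source names call the mutant an 8-miR cluster null, its genotype field a miR-8 cluster null, and a protocol text mentions ectopic mir-3 in homozygous embryos, so the labels conflict on the genotype, and "null" stands here for the embryos so labelled. Eggs were laid for 2 h and aged 6 h at 25 degrees C, giving a stage of 6 to 8 h. Whole embryos were extracted, and each of 3 replicates put 1 null and 1 w1118 extract on one 2-colour array, with the null in Cy3. Replicate 1 was hybridised again with the dyes exchanged, which makes 4 arrays, so replicates 2 and 3 have 1 dye orientation only. Every ratio is log2 of null over w1118 by the labelled dyes, opposite to the authors' matrix, and is followed by its SD over 3 replicates. Values are relative signals from whole embryos, in which fewer cells of a type and less RNA per cell cannot be told apart.

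On the 4 arrays, 58.0% to 65.5% of gene spots were well above background in green and 56.7% to 65.8% in red, and no gene spot was saturated. The number of arrays limits the precision. Of 21 embryonic cell type markers, 20 were tested, of which none was called higher and 7 lower, with a median ratio of -0.06. Of 16 follicle cell and yolk markers, which stand for maternal tissue, 12 were tested, and 1 was called higher and 7 lower. Over all genes tested 28.4% were called higher and 26.7% lower. A gene could enter the test through 1 genotype alone. Of these 12 markers, 5 were above background in both genotypes in all 3 replicates, beside 8485 of all 9532 genes. The median of the 12 was -0.38, with array medians of -0.42, -0.43, -0.27 and, on the swap, -0.49. It ran from -0.91 to -0.18 over the alternative settings. The part of these markers in the results for mitochondrial ribosomal protein genes was not tested.

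Most mitochondrial ribosomal protein genes stayed close to the w1118 level. A gene was called at a limma adjusted p under 0.05 (Benjamini-Hochberg over all 9532 genes), and by this rule 21 of the 72 genes were higher in the null, 10 were lower and 41 were not called. Among all genes tested 55.1% were called, 28.4% higher and 26.7% lower. The members' share of calls was 43.1%, with 29.2% higher and 13.9% lower, so the share called higher lay near that of all genes and the share called lower was smaller. The number of members called higher fell to 12 without replicate 2 and to 10 without replicate 3. Over all genes 2703 were called higher, and 1759 to 2974 with a replicate left out, the fewest without replicate 3. The difference between members and other genes was not tested.

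The median ratio of the 72 genes was 0.03, against 0.01 over all genes, and the median size of a ratio regardless of sign was 0.14, against 0.18. The quartiles of the members were -0.09 and 0.16, and the extremes were -1.71 and 0.82. By array, the median of the members was 0.05, 0.05 and 0.06 in replicates 1, 2 and 3 with the null in Cy3, and -0.002 with the dyes exchanged. It was 0.02 on slide 1, which held both arrays of replicate 1, and 0.04 on slide 2. The list as a whole therefore lay near 0 on every array.

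The calls differed in size. Of the 31 called genes, 15 differed by less than 1.2-fold, 10 by 1.2 to 1.5-fold and 6 by at least 1.5-fold. Calls under 1.2-fold were as frequent over all genes, at 20.9%, as among the 72 members. These 6 of 72 members stood beside 11.2% of all genes. They were 3 called higher and 3 called lower, where 5.42% of all genes were called at least 1.5-fold higher and 5.74% lower. A change of at least 2-fold was called in 2 members, both lower, beside 3.80% of all genes in either direction. The 95% interval of the ratio lay within 1.2-fold of no change for 34 members, or 47.2%, and for 40.0% of all genes. Where the variance of each gene was not moderated by that of the others, 7 members were called higher and 5 lower, and calls including those of mRpL14, mRpL54, mRpL3, mRpL17, mRpS18A, mRpL24 and mRpS24 ended. The ratios of the 41 genes not called ran from -0.15 to 0.24. The ratios closest to 0 were those of mRpL43 at -0.001, mRpL41 at 0.01 and mRpL47 at 0.01.

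**Figure D1:**
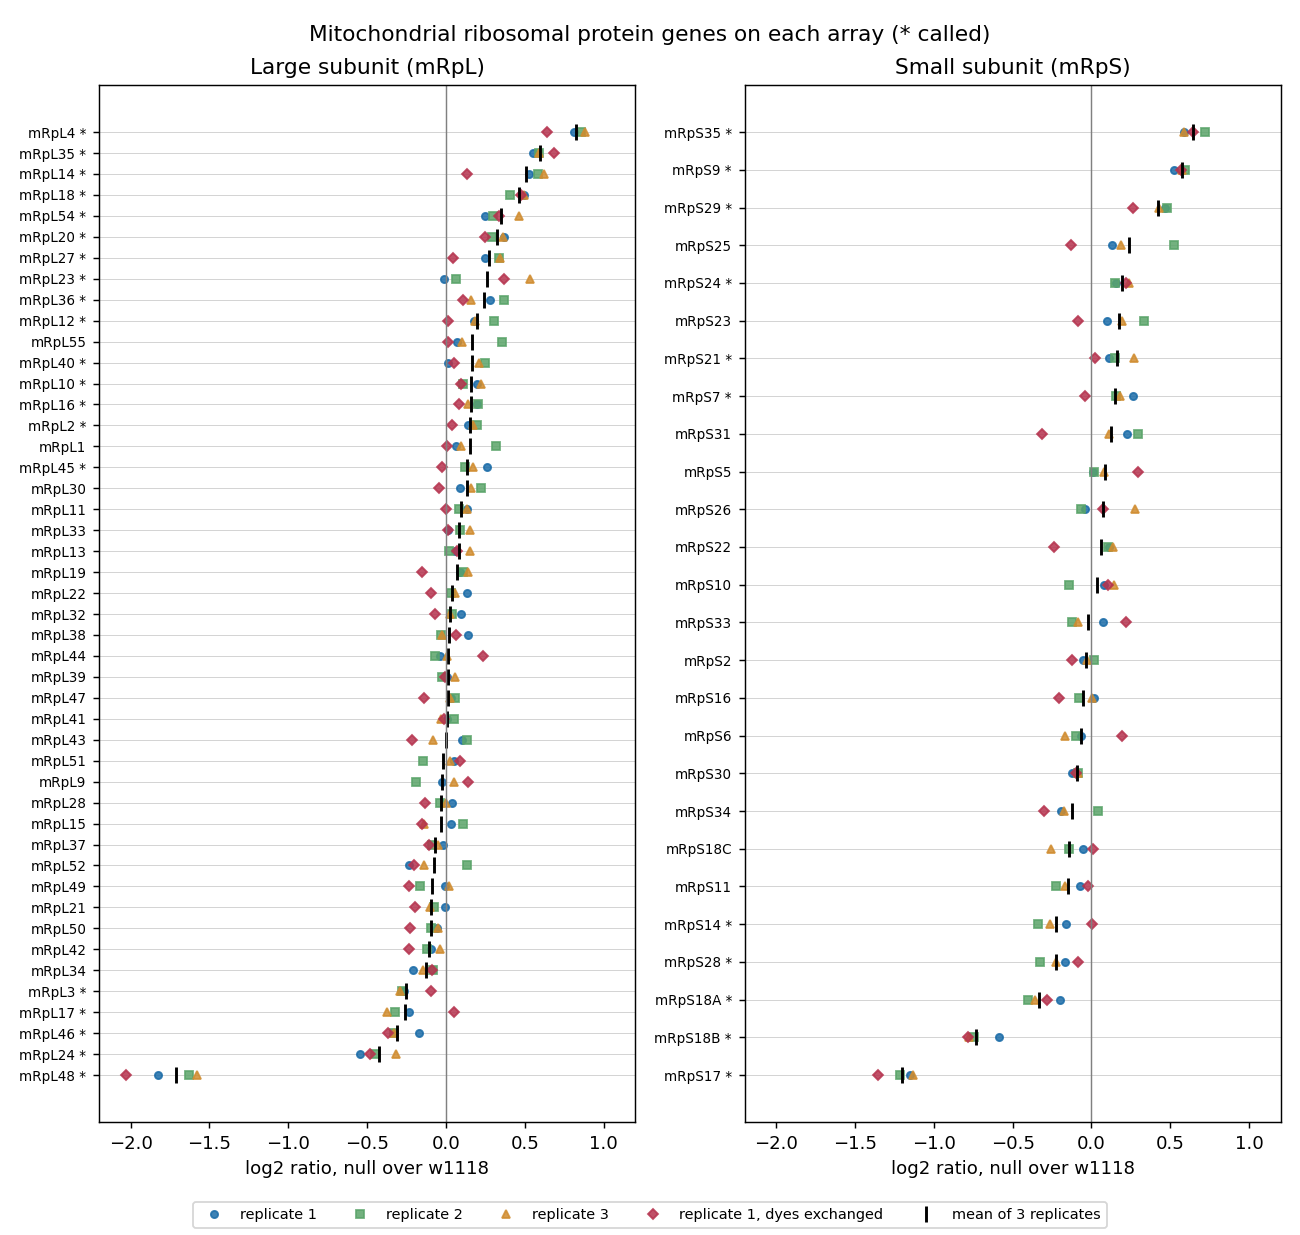
Log2 ratio of null over w1118 (horizontal axis) for each of the 72 mitochondrial ribosomal protein genes, ordered by mean. Genes with mRpL symbols (large subunit) are on the left and those with mRpS symbols (small subunit) on the right. Symbols are the 4 arrays, the black bar is the mean of 3 replicates and an asterisk marks a called gene. Most genes lie near 0, mRpL4 is the highest at 0.82, and mRpL48 at -1.71 and mRpS17 at -1.20 stand far below the others.

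Large-subunit genes were called higher in 15 of 46 cases and lower in 5, with a median of 0.03. The genes of the polypeptide exit tunnel region, as known from bacterial ribosomes, moved in both directions. mRpL4, whose bacterial relative lines the narrowest stretch of the tunnel, had log2 signals of 12.35, 12.34 and 12.35 in the null and 11.62, 11.48 and 11.47 in w1118 in replicates 1 to 3. The null was above w1118 in every replicate and the groups did not overlap. Its ratio was 0.82 ± 0.08 (SD, n = 3, limma adjusted p = 4.04e-05), which is 1.77-fold, with a 95% interval of 0.70 to 0.94. Values on the 4 arrays were 0.82, 0.86, 0.88 and, on the swap, 0.64. mRpL4 was the highest of all members.

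mRpL24, a relative of a bacterial protein that starts assembly of the large subunit, was lower in the null. Its ratios were -0.55, -0.45, -0.32 and, on the swap, -0.48, below 0 on each. Its mean was -0.43 ± 0.10 (SD, n = 3, limma adjusted p = 0.000913). mRpL17, whose bacterial relative sits at the tunnel exit, gave -0.23, -0.32 and -0.37 but 0.05 on the swap, so its direction was not shared by both dye orientations. Its mean was -0.26 ± 0.15 (limma adjusted p = 0.0147), and the call was lost with replicate 1 taken from the swap alone (adjusted p = 0.142) and without replicate 3 (adjusted p = 0.0974). mRpL23, the relative of a bacterial docking protein at the exit, had 0.26 ± 0.24 (limma adjusted p = 0.0473), from -0.01, 0.07, 0.53 and, on the swap, 0.37. Its ratio was largest in replicate 3, and the call was lost in 13 of 19 alternative settings, without replicate 3 (0.12, adjusted p = 0.251) and without replicate 1 (0.30, adjusted p = 0.104) among them. mRpL22, whose bacterial relative also lines the tunnel, was not called at 0.04 ± 0.02.

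Around the peptidyl transferase centre, where peptide bonds form, mRpL3 was lower and mRpL2, mRpL16 and mRpL27 were higher. mRpL3 read -0.26, -0.28, -0.29 and, on the swap, -0.10, a mean of -0.25 ± 0.06 (SD, n = 3, limma adjusted p = 0.005). mRpL27, whose bacterial relative reaches toward the site of peptide transfer, had 0.27 ± 0.11 (limma adjusted p = 0.00686), which was 0.24 without replicate 3 and no longer called (adjusted p = 0.0533). mRpL2 and mRpL16 had smaller ratios of 0.15 ± 0.06 (adjusted p = 0.0305) and 0.16 ± 0.04 (adjusted p = 0.0228) by the probes that represent them, and a second, dimmer probe of mRpL16 gave 0.41 ± 0.09 and was above 0 on every array. The calls of mRpL2 and mRpL16 were lost without replicate 2 (adjusted p = 0.205 and 0.178) or without replicate 3 (adjusted p = 0.178 and 0.116). All of these sizes were under 1.5-fold.

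The stalk of the large subunit, which recruits translation factors, is built on mRpL10, mRpL11 and mRpL12. mRpL12, a gene needed for growth downstream of Cyclin D and Cdk4 in Drosophila, had 0.18, 0.30, 0.19 and, on the swap, 0.02. Its mean was 0.20 ± 0.10 (limma adjusted p = 0.0227), and mRpL10 had 0.16 ± 0.06 (adjusted p = 0.0272). Both were called higher, at under 1.2-fold, and both calls were lost without replicate 2 (adjusted p = 0.166 for mRpL12 and 0.0616 for mRpL10) or without replicate 3 (adjusted p = 0.100 and 0.220). mRpL11 was not called, at 0.09 ± 0.04 (adjusted p = 0.115).

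Further large-subunit genes with bacterial numbers, mRpL35, mRpL18, mRpL14 and mRpL20, were called higher with every array above 0. mRpL35 had log2 signals of 10.87, 10.87 and 10.86 in the null and 10.25, 10.29 and 10.27 in w1118, with no overlap. Its ratio was 0.60 ± 0.02 (SD, n = 3, limma adjusted p = 8.05e-05), 1.51-fold, and the swap gave 0.69. The null was higher in both dye orientations.

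mRpL18, whose bacterial relative holds the small ribosomal RNA of the central protuberance, had 0.50, 0.41 and 0.49 and, on the swap, 0.47. Its mean was 0.46 ± 0.05 (limma adjusted p = 0.000298), and the 4 arrays lay close together. mRpL14, at the face toward the small subunit in bacteria, had 0.53, 0.58 and 0.62 but only 0.13 on the swap, with a mean of 0.51 ± 0.16 (adjusted p = 0.00104). The swap was thus far below the other arrays of mRpL14, though above 0. mRpL20, an early assembly protein in bacteria, had 0.32 ± 0.04 (adjusted p = 0.00136).

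Proteins that mitochondria added to the large subunit included the most changed gene of all. mRpL48, a protein of the central protuberance in mammalian mitochondria, had log2 signals of 6.92, 6.82 and 6.79 in the null and 8.85, 8.45 and 8.37 in w1118. Every null signal lay more than 1 log2 unit below every w1118 signal. The ratio was -1.71 ± 0.19 (SD, n = 3, limma adjusted p = 9.20e-06), with -1.83, -1.63, -1.58 and, on the swap, -2.03. It was 3.28-fold lower, with a 95% interval of -1.89 to -1.53 on the log2 scale. The size depended on background correction, at -2.39 with a normexp offset of 0 and -2.79 from processed signals, and the direction did not.

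Other central protuberance proteins of mammalian mitochondria changed less. mRpL46 gave -0.17, -0.33, -0.33 and, on the swap, -0.37, a mean of -0.31 ± 0.03 (limma adjusted p = 0.00158). mRpL40 was called higher at 0.16 ± 0.12 (adjusted p = 0.049), close to the threshold, and the call was lost without replicate 2 (adjusted p = 0.248) or replicate 3 (adjusted p = 0.233). mRpL38 was not called at 0.02 ± 0.07. mRpL54 had 0.25, 0.30, 0.47 and, on the swap, 0.34, a mean of 0.35 ± 0.10 (adjusted p = 0.00198), above 0 on every array. mRpL45, whose mammalian relative ties the ribosome to the inner membrane, had 0.14 ± 0.03 (adjusted p = 0.0381) but -0.03 on the swap. Its call was lost in 10 of 19 alternative settings, without replicate 2 (adjusted p = 0.159) and without replicate 3 (adjusted p = 0.250) among them. A second, dimmer probe of mRpL45 gave 0.06 ± 0.19 and was not called.

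**Figure D2:**
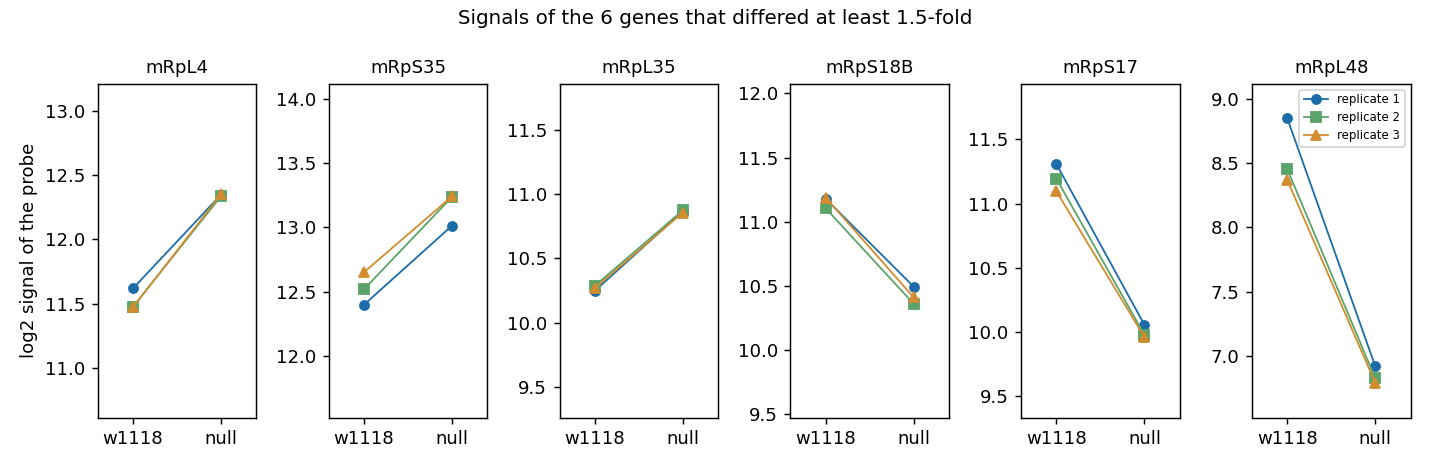
Log2 signal of the probe (vertical axis, arbitrary units, a separate range of equal length for each gene) in w1118 and null for the 6 genes that differed at least 1.5-fold, with lines joining the extracts of a replicate. Null and w1118 signals do not overlap in any of the 6 genes, and the gap is widest in mRpL48.

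Small-subunit genes were called higher in 6 of 26 cases and lower in 5, with a median of 0.01. mRpS35, a protein added in mitochondria, had log2 signals of 13.01, 13.24 and 13.24 in the null and 12.40, 12.52 and 12.65 in w1118. The lowest null signal was above the highest w1118 signal. Its ratio was 0.64 ± 0.07 (SD, n = 3, limma adjusted p = 9.22e-05), 1.56-fold, with 0.59, 0.72, 0.59 and, on the swap, 0.64. The arrays of both dye orientations gave like values.

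mRpS9, whose bacterial relative reaches the tRNA in the decoding cleft, had 0.52, 0.60, 0.58 and, on the swap, 0.57. Its mean was 0.57 ± 0.03 (limma adjusted p = 9.88e-05), 1.49-fold, just inside the 1.5-fold line, while mRpL35 at 1.51-fold lay just beyond it. mRpS29, known in mammals as the GTP-binding protein DAP3, had 0.47, 0.48, 0.43 and 0.26 on the swap, a mean of 0.42 ± 0.06 (adjusted p = 0.000489). mRpS7 and mRpS21 were called at 0.15 ± 0.03 (adjusted p = 0.0281) and 0.16 ± 0.10 (adjusted p = 0.0424), and mRpS7 was -0.04 on the swap. Both calls were lost without replicate 2 (adjusted p = 0.145 and 0.0882) or without replicate 3 (adjusted p = 0.202 and 0.302).

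mRpS17, a relative of a bacterial protein that binds the ribosomal RNA early in assembly, was the second lowest member. Its log2 signals were 10.06, 9.98 and 9.96 in the null and 11.31, 11.19 and 11.09 in w1118, fully apart. The ratio was -1.20 ± 0.06 (SD, n = 3, limma adjusted p = 5.86e-06), 2.30-fold lower, with -1.15, -1.22, -1.13 and, on the swap, -1.35. Its 95% interval was -1.31 to -1.09.

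The fly has 3 genes for relatives of a single bacterial protein, S18, and their ratios differed. mRpS18B had log2 signals of 10.50, 10.36 and 10.41 in the null and 11.18, 11.11 and 11.19 in w1118, with no overlap. Its ratio was -0.73 ± 0.05 (SD, n = 3, limma adjusted p = 4.17e-05), 1.66-fold lower, with -0.58, -0.74, -0.78 and, on the swap, -0.78. mRpS18A had -0.33 ± 0.08 (adjusted p = 0.00196) from -0.20, -0.40, -0.36 and -0.28 on the swap, below 0 on each array, although its null and w1118 signals overlapped between replicates. mRpS18C was not called at -0.14 ± 0.12 (adjusted p = 0.0786), and was called without replicate 1 (-0.20, adjusted p = 0.0263). All of these means were below 0, and the differences between the 3 genes were not tested.

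mRpS14, whose bacterial relative lies in the head of the small subunit, and mRpS28 were lower by little. mRpS14 had -0.23 ± 0.14 (limma adjusted p = 0.021) with 0.01 on the swap, and mRpS28 had -0.23 ± 0.10 (adjusted p = 0.0126) with -0.08 on the swap. Both calls were lost without replicate 2 (adjusted p = 0.0942 and 0.0769) or without replicate 3 (adjusted p = 0.105 and 0.0683). Among genes not called, mRpS25 had one of the largest spreads between replicates at 0.24 ± 0.26 (adjusted p = 0.0749), beside mRpL23 and mRpL48. mRpS31 read 0.23, 0.29, 0.11 and, on the swap, -0.31, the widest gap between dye orientations of any member, and had a mean of 0.12 ± 0.17 (adjusted p = 0.177). Without replicate 1 both were called, mRpS25 at 0.35 (adjusted p = 0.0344) and mRpS31 at 0.20 (adjusted p = 0.0436).

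The genes were also split by protein number. Of 42 genes with a number also used for bacterial proteins (up to L36 and S21), 15 were called higher and 7 lower, or 52.4%, with a median of 0.08. Of 30 genes with higher numbers, 6 were called higher and 3 lower, or 30.0%, with a median of 0.01. The number is an imperfect guide, since mRpS24 and mRpL55, for example, have bacterial relatives under other names. Over all genes the share called was 55.1%, and the difference between these 2 groups was not tested.

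Signals of the 2 genotypes did not overlap across replicates for 33 members, with the null above in 19 and below in 14. For all genes this held with the null above in 26.3% and below in 24.4%. The ratio had 1 sign on all 4 arrays for 39 members, 24 positive and 15 negative, beside 59.6% of all genes, and in all 3 replicates for 51 members, beside 74.5%. Of the 31 called members 26 kept 1 sign on all arrays, and 4 had the opposite sign on the swap, which were mRpL17, mRpL45, mRpS7 and mRpS14. These 4 were among 72 members tested. Of all 9532 genes tested, of which 5252 were called, 638 or 6.69% were called with an opposite sign on the swap. The share of called genes with 1 sign on all arrays was not computed over all genes. The swap lay below the mean of the unswapped arrays for 49 members and above it for 23, with a median absolute gap of 0.15 and a largest of 0.52. Across the 72 members, the unswapped arrays correlated with each other at Pearson's r of 0.931 to 0.939 and Spearman's rho of 0.837 to 0.848, and the swap with them at r of 0.816 to 0.890 and rho of 0.469 to 0.662. These values describe genes that share arrays and extracts.

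**Figure D3:**
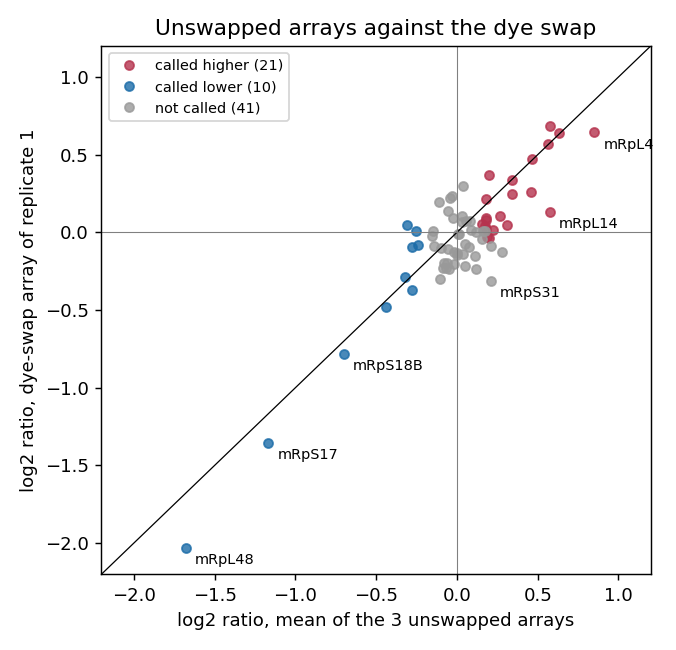
Log2 ratio on the dye-swap array of replicate 1 (vertical axis) against the mean of the 3 unswapped arrays (horizontal axis) for the 72 genes, with the line of equality. mRpL48, mRpS17, mRpS18B and mRpL4 lie in the same direction in both orientations, while mRpL14 and mRpS31 fall well below the line.

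Several probes, 22 in all, covered 10 genes, and 62 had 1 probe, so for most genes no second probe tested the value. Probes of a gene had the same sign in 7 of these 10 genes, and the median range between them was 0.12. The widest range was in mRpS24, a relative of the bacterial protein S3, at 0.67. Its brighter probe, which represents the gene, was called higher at 0.19 ± 0.05 (limma adjusted p = 0.0126; 0.120 without replicate 3), while its other probe was called lower at -0.48 ± 0.13, so the direction of mRpS24 is not settled. The 2 probes of mRpL20 gave 0.44 and 0.32, and those of mRpL16 gave 0.16 for the brighter and 0.41 for the other, all of them called higher. mRpS5, with 4 probes, gave 0.34, 0.04, 0.08 and 0.29, of which 0.34 and 0.29 were called higher, and the brightest, which represents the gene, was not called. None of the 6 genes that differed at least 1.5-fold had a second probe.

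Genes that work beside the mitochondrial ribosome moved in both directions. tko and bonsai also encode small-subunit proteins, relatives of S12 and S15, under names outside the symbol rule. tko was called higher at 0.26 ± 0.18 (limma adjusted p = 0.0248), a call lost without replicate 2 (adjusted p = 0.121) or replicate 3 (adjusted p = 0.0639), and bonsai was not called at -0.14 ± 0.11. Of 9 mitochondrial translation factors, 4 were called higher and 1 lower, beside 28.4% and 26.7% of all genes, with a median of 0.05. mEFTu1, an elongation factor that brings tRNA to the ribosome, was higher at 1.37 ± 0.08 (adjusted p = 3.96e-06), and mRF1, a release factor that ends translation, was lower at -1.63 ± 0.08 (adjusted p = 2.32e-06). Both differed more than any member except mRpL48.

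Of 15 mitochondrial aminoacyl-tRNA synthetases, which load tRNAs, 4 were called higher and 4 lower, with a median of -0.04. The largest ratios among the called ones were -1.20 for SerRS-m, whose second probe gave -0.38, then -0.99 for IleRS-m, 0.72 for AlaRS-m and 0.66 for GluRS-m. Of 12 genes of mitochondrial DNA upkeep and transcription, 3 were called higher and 1 lower. The lower one was TFAM, which packages and transcribes mitochondrial DNA, at -0.42 ± 0.02 (limma adjusted p = 0.00037), and mtDNA-helicase was among the higher ones at 0.42. Of 23 genes listed for protein import, which carries ribosomal proteins into the organelle, 3 were called higher and 9 lower, with a median of -0.09. The 3 include unc-45, a myosin chaperone rather than an import protein. Beside these lists, 28.4% of all genes tested were called higher and 26.7% lower.

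Regulators of mitochondrial gene expression and growth gave 3 calls higher and 4 lower among 10, beside 28.4% and 26.7% of all genes. Cdk4, which acts upstream of mRpL12 in growth of the fly, was lower at -0.74 ± 0.07 (limma adjusted p = 5.02e-05), while its partner CycD was higher at 0.35. srl, the fly relative of the PGC-1 coactivators, had -0.50 ± 0.23 but 0.08 on the swap. mRpL12 itself was called higher at 0.20, with 0.02 on the swap, and the call was lost in 7 of 19 alternative settings. A link between the ratios of Cdk4 and mRpL12 was not tested.

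Genes of the cytoplasmic ribosome and of the respiratory chain were set beside the mitochondrial ribosomal protein genes. Of 91 cytoplasmic ribosomal protein genes 7 were called higher and 45 lower, with a median of -0.17. The median ran from -0.36 to -0.03 over the alternative settings. Over all genes tested 28.4% were called higher and 26.7% lower. Of the 91 cytoplasmic genes, 30 were called with the opposite sign on the swap, beside 6.69% of all genes. By array, the medians of that list were -0.16, -0.22, -0.19 and, on the swap, 0.02. Of 76 oxidative phosphorylation subunit genes, 26 were called higher and 12 lower, or 34.2% and 15.8%, with a median of 0.08. The mitochondrial ribosomal genes had 29.2% and 13.9%, near these shares, while the cytoplasmic list had 7.69% and 49.5%. The mitochondrial ribosomal median of 0.03 over the 3 replicates lay between those of both other lists. On the swap array it was -0.002, below the 0.02 of the cytoplasmic and the 0.03 of the oxidative phosphorylation list. The differences between the lists were not tested. Each list holds many genes from the same arrays and none is a replicate of another.

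**Figure D4:**
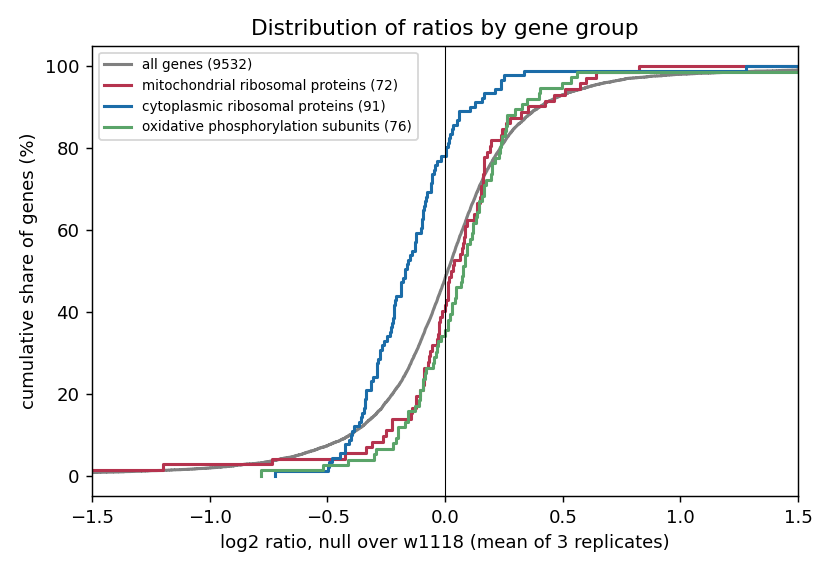
Cumulative share of genes (vertical axis, percent) by log2 ratio of null over w1118 (horizontal axis, mean of 3 replicates, drawn from -1.5 to 1.5) for all 9532 genes, 72 mitochondrial ribosomal, 91 cytoplasmic ribosomal and 76 oxidative phosphorylation genes. The cytoplasmic ribosomal curve lies to the left with a median of -0.17, while the median of that list on the swap array was 0.02. The mitochondrial ribosomal curve follows that of all genes near the middle.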

How the data were processed

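Scanned images had been quantified by the authors in Agilent Feature Extraction (version 10.1.1.1), per the file headers. Values were computed from the deposited median spot intensity and median local background of each channel, which carry no normalization. The deposited processed intensity is background-subtracted and dye-normalized, the deposited LogRatio is log10 of red over green per the file headers, and the authors' matrix holds log2 values that followed wild type over null with a slope of -1.00 against null over wild type on each array, its centring unstated.

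In R 4.3.3, limma 3.58.1 corrected background (normexp with an offset of 50) and applied loess to each array, giving control and outlier spots a weight of 0. Spots of a probe were averaged. Probes were kept if well above background in one genotype in at least 2 of 3 replicates, on both arrays for replicate 1, and the brightest kept probe stood for a gene. The 2 arrays of replicate 1 were averaged first, since they hold the same extracts. lmFit and eBayes tested 9532 genes, with Benjamini-Hochberg adjustment at 0.05. Of 32162 probes, 19516 were named through a Release 6 gene table, used only for names and gene order because the array build was earlier. Same-numbered extracts share an array, and their deviations from the group means correlated at 0.627, 0.451 and 0.614 over genes. The submitters state independent isolation of replicates.

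Members and gene lists were chosen with earlier results of these data known. Genes named are the 8 highest and 8 lowest called, those with the largest SD, the widest gap to the swap, ratios nearest 0 or probes in conflict, and up to 4 called per further list. Other members were named for their role after their values were seen. In a simulation over 9532 genes, 50 genes were changed at each fold, with simulated noise. The steps recovered 28% of 1.2-fold changes, 92% of 1.5-fold changes and 100% of 2-fold changes. Far fewer genes changed there than the 55.1% called in the data, and no dye effect particular to a gene was simulated. These rates therefore need not hold for the calls here. Alternatives covered background, normalization, filter, probe summary, swap, test, slide, weights and each replicate left out.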

Additional observations from a re-analysis of the deposited data

Results flagged for a closer look

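Of 77 quantities checked over the 4 arrays, 6 had 1 array standing far from the other 3 by Dixon's test, which chance alone gives in about 1 of 20. In all 6 it was the dye-swap array. For mRpL3 the swap was at -0.095 and the others between -0.293 and -0.265. For mRpL47 it was at -0.139 and the others between 0.029 and 0.057. For mRRF1, a ribosome recycling factor, it was at -0.025 beside 0.398 to 0.468. For Cdk4 it was at -0.945 beside -0.709 to -0.695, the same direction, and for srl at 0.083 beside -0.669 to -0.564. The median of the oxidative phosphorylation subunit genes was 0.030 on the swap and 0.068 to 0.072 on the others. The swap exists for replicate 1 only, so dye orientation and the second hybridisation of that replicate cannot be told apart here.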

How the results depend on the processing

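Over 20 alternatives the count of mitochondrial ribosomal protein genes called higher ran from 7 to 30 and of those called lower from 5 to 17, and over 22, which add each slide alone, their median ran from -0.00925 to 0.058. Called in all 19 alternatives that refit single genes were 11 of the 31 called genes, mRpL4, mRpS35, mRpL35, mRpS9, mRpL18, mRpS29 and mRpL20 higher and mRpL48, mRpS17, mRpS18B and mRpL46 lower, while 14 of the 41 others were never called. Without moderation of the variance, 7 members were higher and 5 lower, and 1057 and 1026 of all genes, in place of 2703 and 2549, and mRpL14, mRpL54, mRpL3, mRpL17, mRpS18A, mRpL24 and mRpS24 were no longer called. With replicate 1 from the swap alone, 10 members were higher with a median of 0.00692, and 1734 and 1665 of all genes were called higher and lower. Median centring without loess gave 12 higher and a median of -0.00925, a dye term gave 17 lower, and processed signals and the authors' matrix both gave a median of 0.058. Leaving out a replicate gave 10 to 24 members higher (12 without replicate 2, 10 without replicate 3), 7 to 12 lower and a median of 0.025 to 0.044, with 1759 to 2974 and 1698 to 2798 of all genes. mRpS24 turned to -0.14 with the mean of its probes. Extracts of a replicate are paired on an array, and with channels fitted separately and no replicate block 11 members were higher and 9 lower; the call of mRpS18A was then lost (adjusted p = 0.248). Leaving out mRpL48 and mRpS17, an alternative chosen after seeing the data, gave 21 higher, 8 lower and a median of 0.035. The cause of these changes was not tested. Aquantile scaling leaves ratios unchanged by construction.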

Other observations

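The 72 genes are spread over the chromosome arms, with 12 on 2L, 11 on 2R, 17 on 3L, 21 on 3R and 11 on the X, and no 2 of them are next to each other. On 2L, 4 were called higher and 3 lower, beside 30.2% and 27.0% of all genes on that arm, and on 2R 3 and 2, beside 29.8% and 29.2%. On 3L the counts were 6 and 2, beside 27.4% and 28.6%, on 3R 6 and 1, beside 27.7% and 25.7%, and on the X 2 and 2, beside 27.8% and 22.1%. These differences were not tested.

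The nearest genes on either side were set beside the 6 members that differed at least 1.5-fold. For mRpL48, neither neighbour was called, with CG17660 at -0.06 and frtz at -0.08. Beside mRpS17, CG3328 was called lower at -0.35 and Nop60B was not called at 0.11. Beside mRpS18B, nesd was called higher at 0.20. Beside mRpL4, CG4278 was called lower at -0.58 and CG4440 was not called at 0.15. Beside mRpS35, Pgant6 was called higher at 0.48 and Atg2 was not called at -0.05, and beside mRpL35, CG6028 was called higher at 0.73 and Mitofilin was not called at -0.01. Over all members, 71 of 134 pairs of a member and a measured neighbour had ratios of the same sign. Pearson's r between the ratios of these pairs was 0.06. Of 28 pairs with both called 17 were in the same direction. The same counts were not made for neighbouring pairs of all genes, so no share stands beside them.

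Among import genes, tomboy40, a relative of the outer membrane pore, was lower at -0.70, and Tim17a2 was lower at -0.35 while Tim17b2 was higher at 0.34. unc-45, reached through its older name Tom34, was called higher at 0.35 and is a myosin chaperone rather than an import protein. Among the respiratory chain genes, COX4 was the highest at 2.20 and SdhD the lowest at -0.78. Among follicle cell and yolk markers, Vm26Aa was lower at -2.05, Cp15 at -1.10 and Yp2 at -1.06.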
